A study of Homo sapiens with 27 samples.

Results

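BON-1 is a cell line from a human pancreatic neuroendocrine tumour. The comparison described here sets BON-1 cells that received full-length MAML3 (FL) against BON-1 cells that received the same plasmid without a MAML3 insert (vector). It uses the 6 BON-1 libraries named for those constructs, 3 of each, out of 27 RNA-seq libraries in the series. FL was the MAML3 cDNA with a V5 tag at its carboxyl end in the plasmid pCMV6-AC, whose promoter is that of cytomegalovirus, and the vector group carried pCMV6-AC alone. Both groups were BON-1 cells grown in DMEM/F12 with serum, transfected with a lipid reagent and harvested 3 days later. Another BON-1 group, dEx1 (MAML3 without exon 1, same tag and plasmid, 3 libraries), shared the estimate of spread in the fits reported here. The closing section gives the fit of the FL and vector libraries alone, which called 0 genes by edgeR, with 472 at an unadjusted p under 0.05, and 0 without vector replicate 1, with 1199. The share of cells that took up plasmid was not given in the sources used here, so each value is an average over cells with and without it.

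MAML3 belongs to the Mastermind-like family. These proteins bind the complex that cleaved Notch forms with the DNA-binding factor RBPJ, and bring in the histone acetyltransferases EP300 and CREBBP, which switches on targets such as HES1, HEY1 and NRARP. In neuroendocrine cells Notch targets are known as repressors of the neuroendocrine programme. The comparison addresses which transcripts differ when a pancreatic neuroendocrine line carries much more MAML3 than usual.

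The 3 FL libraries totalled 110350759, 92353136 and 104436343 estimated counts, and the 3 vector libraries 73026244, 82349381 and 87892041, for replicates 1 to 3. Vector replicate 1 stood apart from the other 8 BON-1 libraries, at -107.3 on the first principal component (30.2% of the variance) where the others lay between -0.1 and 27.9. Its 34 cell cycle and replication genes summed to 1172 CPM (counts as a rate of the scaled library size), against 6152, 5779 and 5188 CPM in the FL libraries and 6098 and 5032 CPM in the other vector libraries. On the second component (25.3%) replicate 3 of every group lay between -34.9 and -50.8, and the first 2 replicates of FL and dEx1 and vector replicate 2 between 26.8 and 36.1. Results are therefore given with all 9 BON-1 libraries and again without vector replicate 1, which leaves 2 vector libraries. Of 9 markers written for BON-1, 8 were in the table and none was under 1 CPM in every library. CHGA, the granule protein chromogranin A, had 14710, 17700 and 11260 CPM in FL and 31740, 17410 and 11630 CPM in vector libraries. PHOX2A, HAND1 and HAND2, which define sympathetic neuroblasts, were listed at 0 in all 6 libraries, and 6 of 8 leukocyte and 6 of 8 fibroblast markers were under 1 CPM in every library.

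MAML3 (chromosome 4, 140637907 to 141075338, minus strand; gene positions are those of GENCODE on hg19) was read first, as a check of the labels. Its level was 2683, 3806 and 5148 CPM in the FL libraries and 65.9, 68.7 and 60.6 CPM in the vector libraries. Every FL library was far above every vector library, and the vector libraries differed little among themselves. The log2 rise of MAML3 was 5.85 (SE 0.22, adjusted p = 0.000719, edgeR's quasi-likelihood test with Benjamini-Hochberg adjustment), and 6.03 without vector replicate 1 (SE 0.20, adjusted p = 0.000865). A count per gene does not tell the transfected MAML3 from the cell's own.

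With all 9 BON-1 libraries, MAML3 was the 1 gene called at an adjusted p under 0.05 among 14903 tested (0.00671%). No gene was called lower by edgeR, where 525 genes were higher (3.52%) and 677 lower (4.54%) at an unadjusted p under 0.05, 1202 in all (8.07%), while DESeq2 called 70 genes higher and 51 lower (0.812% in all) and the edgeR fit of all 27 libraries called 28 genes (0.166%). Without vector replicate 1, edgeR called 14 of 15219 genes (0.092%): 13 were higher in FL (0.0854%), MAML3 included, and 1 was lower (0.00657%). At an unadjusted p under 0.05, 892 genes were then higher (5.86%) and 869 lower (5.71%), 1761 in all (11.6%). DESeq2 called 402 genes there (2.64%) and the fit of all 27 libraries less that one called 29 (0.168%). Below, a gene is called by the edgeR fit of the BON-1 libraries unless another fit is named. The 12 other genes called higher encode secreted proteins of epithelium, gut and pancreas (CLCA1, PYY, CELA3A, CP), inflammatory and protease genes (CXCL8, S100A9, MMP10), the nuclear receptor NR4A1, chromatin proteins (CBX1, CGGBP1), and the signalling and actin genes RGS4 and ARPC5. In that edgeR fit none of these 12 was called with all 9 libraries, so each such call rests on 2 vector libraries. With vector replicate 1 kept, DESeq2 called 11 of the 12, all but CGGBP1, and the fit of all 27 libraries called 3, CLCA1, NR4A1 and PYY. When FL replicate 2 or 3 was also left out, MAML3 was the only 1 of the 14 still called, and when vector replicate 2 or 3 was also left out, MAML3 and CLCA1 were.

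**Figure D1:**
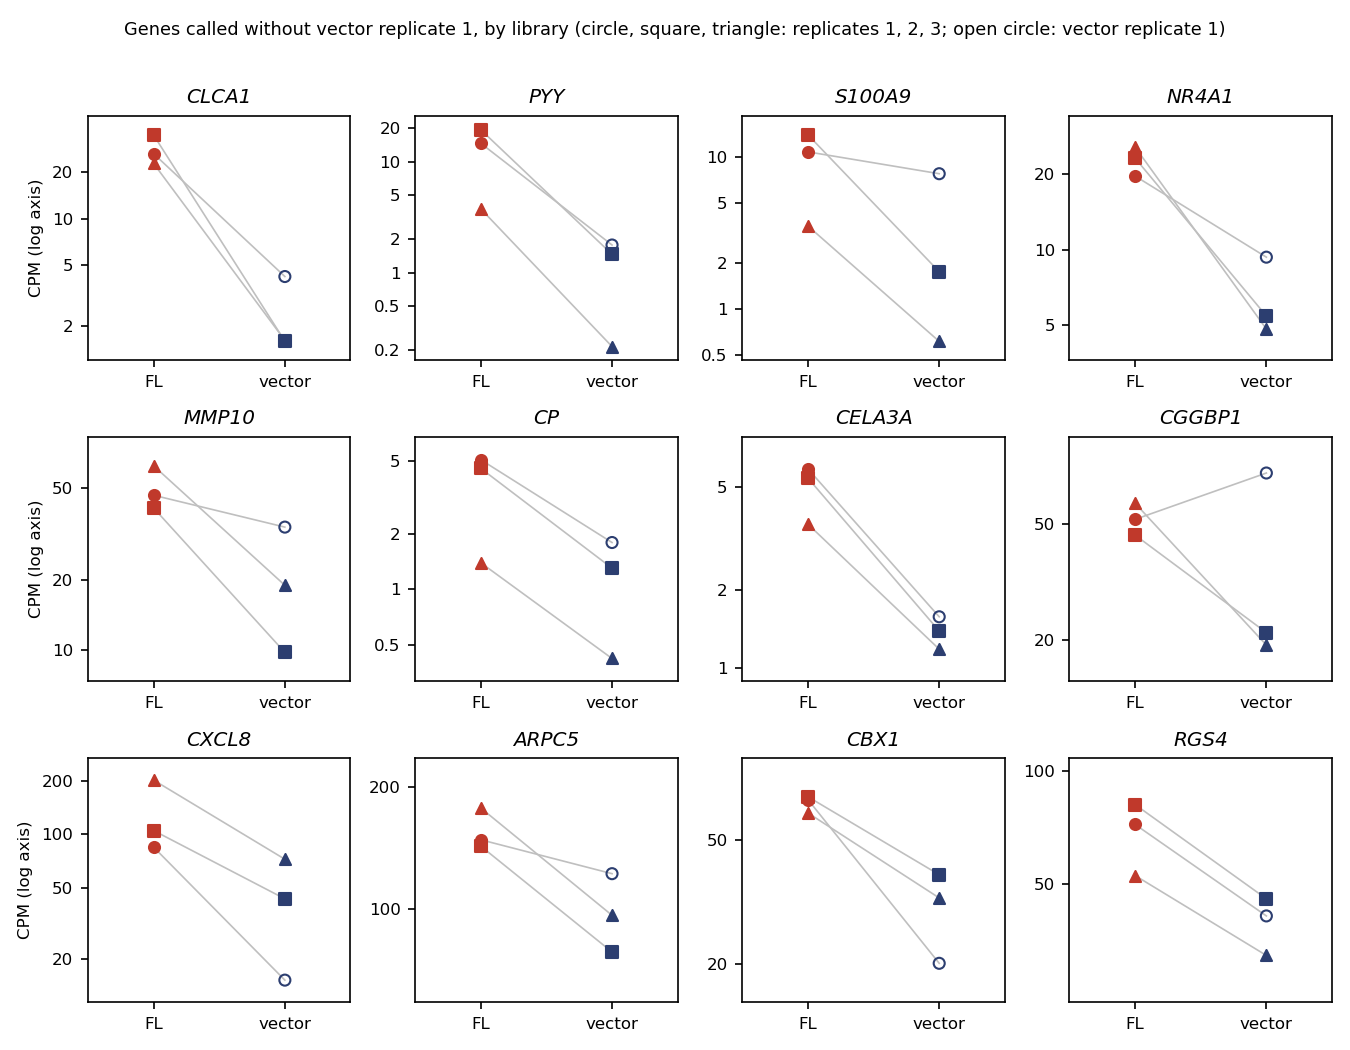
Levels in CPM (log axis) of the 12 genes called higher without vector replicate 1, MAML3 aside. Each panel is a gene, FL is on the left and vector on the right, lines join libraries of the same replicate number (circle 1, square 2, triangle 3), and the open circle is vector replicate 1. For CGGBP1 that library lies above all 3 FL libraries at 74.9 CPM, and for MMP10 and ARPC5 it lies above the other vector libraries but below FL.

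Among the secreted proteins, CLCA1 had the largest fold change of the called genes after MAML3. CLCA1 (chromosome 1, 86934051 to 86965942, plus strand) encodes a secreted modulator of calcium-activated chloride channels known from mucus-producing cells. It was at 26.4, 34.9 and 22.8 CPM in FL and 4.21, 1.60 and 1.62 CPM in vector libraries. No vector library reached the lowest FL library, and vector replicate 1 was the highest of the vector group. Its log2 rise was 4.15 without vector replicate 1 (SE 0.24, adjusted p = 0.0111). With all 9 libraries the fold change was 3.54 (SE 0.41, adjusted p = 0.128).

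PYY (chromosome 17, 42030101 to 42081837, minus strand) encodes peptide YY, a hormone of gut and islet endocrine cells. Its level was 14.6, 19.3 and 3.75 CPM in FL and 1.77, 1.46 and 0.215 CPM in vector libraries. Replicate 3 was lowest in both groups, yet its FL library still exceeded every vector library. The rise without vector replicate 1 was 3.78 (SE 0.32, adjusted p = 0.0273), and the fold change with all 9 libraries was 3.54 (SE 0.32, adjusted p = 0.105), so the size changed little and the call did. Of 20 genes listed as peptide hormones and receptors of neuroendocrine tumours, 14 were tested without vector replicate 1, with PYY called by edgeR. At an unadjusted p under 0.05, 4 were higher and 2 lower, against 5.86% higher and 5.71% lower over all genes. The list's median log2 fold change was 0.24, beside -0.003 over all genes tested. SSTR2, a somatostatin receptor that is a drug target in these tumours, was named after its values were seen. It had 26.7, 28.2 and 25.9 CPM in FL and 18.5, 21.7 and 19.1 CPM in vector libraries, without overlap, and was called higher by DESeq2 in both fits. Without vector replicate 1 DESeq2 called 3 members of this list higher, NTS, PYY and SSTR2, and 1 lower, the somatostatin receptor SSTR5. It called 2.64% of all genes there in either direction. Neurotensin (NTS) had 117, 116 and 167 CPM in FL and 59.9, 90.1 and 146 CPM in vector libraries, each FL library above the vector library of its number while the groups overlapped (adjusted p = 0.292 without vector replicate 1).

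CELA3A (chromosome 1, 22328150 to 22339035, plus strand) encodes a pancreatic elastase. It had 5.90, 5.43 and 3.60 CPM in FL and 1.57, 1.39 and 1.18 CPM in vector libraries, with the groups apart and the vector libraries close together. CELA3A rose by 1.75 without vector replicate 1 (SE 0.17, adjusted p = 0.0348), and had a fold change of 1.83 with it (SE 0.18, adjusted p = 0.110). It has a near-identical neighbour, CELA3B, and how reads were split between them is not stated, so the level is uncertain. CP (chromosome 3, 148880197 to 148939616, minus strand), which encodes the copper carrier ceruloplasmin, had 5.08, 4.56 and 1.40 CPM in FL and 1.80, 1.30 and 0.419 CPM in vector libraries. Each CP value in FL was above that of its own number in vector, but FL replicate 3 lay below vector replicate 1. The rise of CP without that library was 1.81 (SE 0.16, adjusted p = 0.0324), and the fold change with it was 1.67 (SE 0.19, adjusted p = 0.113).

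CXCL8, S100A9 and MMP10 are genes known to rise in inflamed epithelium. CXCL8 (chromosome 4, 74606236 to 74609433, plus strand) encodes a chemokine for neutrophils. It had 84.8, 105 and 202 CPM in FL and 15.2, 43.5 and 72.6 CPM in vector libraries. The lowest FL library exceeded the highest vector library, and in both groups replicate 3 was highest. CXCL8 rose by 1.32 without vector replicate 1 (SE 0.11, adjusted p = 0.0273), against a fold change of 1.69 with all 9 libraries (SE 0.29, adjusted p = 0.555).

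S100A9 (chromosome 1, 153330330 to 153333499, plus strand), a subunit of the calcium-binding protein calprotectin, was at 10.8, 14.0 and 3.51 CPM in FL and 7.75, 1.76 and 0.612 CPM in vector libraries. Vector replicate 1 lay above FL replicate 3, so the groups overlapped until that library was left out. S100A9 then rose by 2.70 (SE 0.19, adjusted p = 0.0155), against a fold change of 1.89 with all 9 libraries (SE 0.49, adjusted p = 0.599). S100A9 is abundant in myeloid cells, and the leukocyte markers CD3E, LST1 and TYROBP were at 0 in all 6 libraries while PTPRC did not exceed 0.342 CPM. The summed level of the 8 leukocyte markers was 36.4, 32.0 and 102 CPM in FL and 60.5, 29.9 and 92.0 CPM in vector libraries, nearly all of it CD68, a lysosomal protein also made by other cells.

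MMP10 (chromosome 11, 102641233 to 102651359, minus strand) encodes a stromelysin, a matrix-degrading protease. Its level was 46.4, 40.9 and 62.2 CPM in FL and 33.9, 9.78 and 19.0 CPM in vector libraries, with every FL library above every vector library. The rise was 1.84 without vector replicate 1 (SE 0.12, adjusted p = 0.0111), and the fold change was 1.38 with it (SE 0.31, adjusted p = 0.599).

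NR4A1 (chromosome 12, 52416616 to 52453291, plus strand) encodes an orphan nuclear receptor of the immediate early class. It was at 19.6, 23.1 and 25.5 CPM in FL, 6.54, 4.74 and 5.69 CPM in dEx1 and 9.32, 5.44 and 4.83 CPM in vector libraries. The FL libraries lay close together and vector replicate 1 was highest of its group. NR4A1 rose by 2.14 without vector replicate 1 (SE 0.19, adjusted p = 0.0324), and had a fold change of 1.85 with it (SE 0.25, adjusted p = 0.217). NR4A1, CLCA1 and MAML3 were the genes still called in that comparison when the replicate block was removed. Against the same 2 vector libraries the dEx1 fold change was 0.13 for NR4A1 (adjusted p = 0.890), -0.09 for CBX1 (adjusted p = 0.805), 3.37 for S100A9 (adjusted p = 0.00779) and 5.34 for CLCA1 (adjusted p = 0.00312), and since FL and dEx1 share those libraries the effects are not independent.

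CBX1 (chromosome 17, 46147414 to 46178840, minus strand), a heterochromatin protein, had 67.2, 68.6 and 60.9 CPM in FL, 36.1, 34.4 and 32.0 CPM in dEx1 and 20.1, 38.6 and 32.6 CPM in vector libraries. The FL libraries were the highest 3 of the 9. CBX1 rose by 0.85 without vector replicate 1 (SE 0.07, adjusted p = 0.0273), and had a fold change of 1.13 with it (SE 0.21, adjusted p = 0.556). CGGBP1 (chromosome 3, 88101094 to 88199035, minus strand), which binds CGG repeats in DNA, had 51.9, 45.8 and 58.9 CPM in FL and 74.9, 21.2 and 19.2 CPM in vector libraries. Here vector replicate 1 was above every FL library, and the rise of 1.40 without it (SE 0.13, adjusted p = 0.0348) stands beside a fold change of 0.64 with it (SE 0.46, adjusted p = 0.642).

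RGS4 (chromosome 1, 163038565 to 163046592, plus strand) encodes a brake on G protein signalling. It had 72.0, 81.4 and 52.7 CPM in FL and 41.1, 45.7 and 32.3 CPM in vector libraries, each FL library above all 3 vector libraries. The rise was 0.77 without vector replicate 1 (SE 0.07, adjusted p = 0.0324), and the fold change was 0.78 with it (SE 0.08, adjusted p = 0.113). ARPC5 (chromosome 1, 183589981 to 183604918, minus strand), a subunit of the complex that branches actin filaments, had 148, 143 and 178 CPM in FL, 144, 140 and 177 CPM in dEx1 and 122, 78.2 and 96.4 CPM in vector libraries. No vector library reached any FL or dEx1 library. ARPC5 rose by 0.88 without vector replicate 1 (SE 0.06, adjusted p = 0.0111), and had a fold change of 0.67 with it (SE 0.15, adjusted p = 0.599).

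HOXC-AS1 (chromosome 12, 54392806 to 54393794, minus strand), an antisense RNA of the HOXC cluster named after its values were seen, was the 1 gene called lower. It had 4.98, 4.46 and 2.48 CPM in FL and 5.64, 11.6 and 7.69 CPM in vector libraries, with no overlap but a narrow gap to vector replicate 1. HOXC-AS1 fell by 1.48 without that library (SE 0.12, adjusted p = 0.0273), and had a fold change of -1.10 with it (SE 0.29, adjusted p = 0.599). Whether reads were counted by strand is not stated, so its reads cannot be told apart from those of overlapping HOXC genes. AAGAB, an adaptin-binding protein, was among the genes of smallest p with all 9 libraries and had 59.1, 60.5 and 56.9 CPM in FL, 93.0, 94.0 and 96.0 CPM in dEx1 and 101, 90.5 and 90.1 CPM in vector libraries. The FL libraries were the lowest 3 of the 9, with a log2 fold change of -0.67 (SE 0.09, adjusted p = 0.217) that also missed the threshold without vector replicate 1 (adjusted p = 0.0554).

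Promoter windows were read from RefSeq (build GRCh38.p14, 250 bases before to 50 after each gene's start), and 10 of the 13 called genes other than MAML3 were in that table. The first window listed for each gene was kept, so any other start of a gene was not searched. The RBPJ core TGGGAA or its reverse complement TTCCCA was in 1 of the 10, S100A9, and in 6599 of all 27195 promoters (24.3%). The longer form GTGGGAA or TTCCCAC, which contains the core, was in none of the 10 and in 1708 of all promoters (6.28%). The AP-1 motif TGACTCA or TGAGTCA, searched for after the called genes were known, was in the CXCL8 and PYY windows and in 1329 of all promoters (4.89%). The 3 windows with a match are shown because they are the promoters of called genes that hold letters of either motif. They are CXCL8 at chr4:73740319-73740618 (plus strand), PYY at chr17:44004396-44004695 (minus strand) and S100A9 at chr1:153357604-153357903 (plus strand). Each is given 5′ to 3′ on the gene's strand, with the match in capitals, which begins at base -137 in CXCL8, -56 in PYY and -179 in S100A9 relative to the start.
CXCL8: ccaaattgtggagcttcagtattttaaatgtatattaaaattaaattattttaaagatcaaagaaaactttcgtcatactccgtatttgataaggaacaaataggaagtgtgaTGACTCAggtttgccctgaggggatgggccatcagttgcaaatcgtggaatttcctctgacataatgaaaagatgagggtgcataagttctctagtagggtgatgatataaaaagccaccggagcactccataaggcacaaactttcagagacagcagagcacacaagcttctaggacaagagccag
PYY: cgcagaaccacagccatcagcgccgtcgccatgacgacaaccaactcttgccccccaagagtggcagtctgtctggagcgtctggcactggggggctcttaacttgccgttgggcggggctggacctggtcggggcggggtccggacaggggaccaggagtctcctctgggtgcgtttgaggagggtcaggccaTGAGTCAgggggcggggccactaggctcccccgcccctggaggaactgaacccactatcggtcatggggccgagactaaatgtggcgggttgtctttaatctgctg
S100A9: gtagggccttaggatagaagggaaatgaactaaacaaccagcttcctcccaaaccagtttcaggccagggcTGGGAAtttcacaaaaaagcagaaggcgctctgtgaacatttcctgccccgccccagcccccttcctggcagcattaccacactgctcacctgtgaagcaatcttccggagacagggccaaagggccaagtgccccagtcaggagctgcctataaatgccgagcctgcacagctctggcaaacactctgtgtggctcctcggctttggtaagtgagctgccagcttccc
A match of letters is not a measured binding site.

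Of the listed Notch pathway genes other than MAML3, edgeR and DESeq2 called 0 in either direction, with or without vector replicate 1. HES1, a target whose protein represses neuroendocrine genes, had 71.5, 81.8 and 87.6 CPM in FL and 150, 90.0 and 89.3 CPM in vector libraries. All 3 FL values were below all 3 vector values, but by under 2 CPM at the closest, and vector replicate 1 alone was far above. HEY1, another target repressor, had 2.63, 1.90 and 2.68 CPM in FL and 8.88, 3.43 and 4.35 CPM in vector libraries, again without overlap, with a log2 fold change of -1.15 (SE 0.31, adjusted p = 0.599) and of -0.69 without vector replicate 1 (SE 0.17, adjusted p = 0.312). HES4, also a target repressor, had 54.0, 54.4 and 54.8 CPM in FL and 85.8, 59.2 and 67.1 CPM in vector libraries. NRARP, a target that dampens Notch signalling, had 27.3, 31.0 and 30.6 CPM in FL and 18.6, 30.4 and 27.9 CPM in vector libraries, which overlapped. HES1 and NRARP were named after their values were seen.

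Of the 20 Notch targets listed, 16 were tested. At an unadjusted p under 0.05, 6 were lower and 0 higher with all 9 libraries, against 4.54% lower over all genes, and 5 were lower and 0 higher without vector replicate 1, against 5.71%. The list's median log2 fold change was -0.31 with all 9 libraries and -0.13 without vector replicate 1, beside -0.010 and -0.003 over all genes tested. None of these Notch targets was called by edgeR in either fit. Vector replicate 1 was the highest vector library for HES1, HEY1 and HES4 and had the low cell cycle sum given above. Its part in the list's median was not tested beyond the fit without it.

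The 19 measured Notch ligands, receptors and coactivators were summed at 1671, 1624 and 1813 CPM in FL and 1805, 1799 and 1856 CPM in vector libraries. In this list 0 members were higher and 1 lower at an unadjusted p under 0.05 with all 9 libraries, against 3.52% higher and 4.54% lower over all genes. Without vector replicate 1, 1 was higher and 3 lower, against 5.86% and 5.71%. None of them was called. The list's median was -0.13 with all 9 libraries and -0.10 without vector replicate 1, beside -0.010 and -0.003 over all genes tested. MAML1, a paralog of MAML3 named after its values were seen, had 64.8, 65.4 and 72.3 CPM in FL and 84.4, 73.7 and 73 CPM in vector libraries. MAML2, the other paralog, had 19.0, 14.6 and 17.5 CPM in FL and 27.99, 17.0 and 20.4 CPM in vector libraries, and it was the 1 member at an unadjusted p under 0.05 with all 9 libraries (log2 fold change -0.34, SE 0.13, adjusted p = 0.599). RBPJ, the DNA-binding partner, also named after its values were seen, was at 43.4, 36.2 and 33.6 CPM in FL and 37.9, 35.2 and 34.4 CPM in vector libraries, which overlapped.

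Inflammatory genes driven by NF-kB lay above the middle of all genes. Of 16 tested with all 9 libraries, 7 were higher and 0 lower at an unadjusted p under 0.05, against 3.52% higher over all genes. Without vector replicate 1, 9 of 17 were higher and 0 lower, against 5.86%, with CXCL8 the 1 called by edgeR. DESeq2 called 3 members higher with all 9 libraries, CXCL8, CXCL2 and CCL20, and 8 higher and 1 lower without vector replicate 1. Over all genes and in either direction it called 0.812% and 2.64% in those fits. The list's median was 1.02 with all 9 libraries and 0.50 without vector replicate 1. Its summed level was 366, 443 and 662 CPM in FL, 273, 276 and 409 CPM in dEx1 and 272, 274 and 427 CPM in vector libraries. FL was above vector for each replicate number, with replicate 3 the highest in every group, so that FL replicate 1 lay below vector replicate 3.

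CXCL2, a neutrophil chemokine among the genes of smallest p, had 2.13, 4.08 and 4.74 CPM in FL and 0.279, 0.490 and 0.794 CPM in vector libraries. The groups were apart, with a log2 fold change of 2.83 (SE 0.31, adjusted p = 0.113) and of 2.67 without vector replicate 1 (SE 0.30, adjusted p = 0.0794). In the edgeR fit of all 27 libraries CXCL2 passed in BON-1, with adjusted p = 0.00634, and adjusted p = 0.0306 without vector replicate 1, and DESeq2 also called it with and without that library. Other members named here were chosen after their values were seen. CXCL1, also a neutrophil chemokine, had 38.6, 52.8 and 54.7 CPM in FL and 10.4, 36.5 and 39.9 CPM in vector libraries, each FL library above that of its number. CCL20, a chemokine for lymphocytes, had 1.98, 1.25 and 9.47 CPM in FL and was listed at 0 in vector replicates 1 and 2, with 0.930 CPM in vector replicate 3. The fit of all 27 libraries also called CCL20 higher, but not once vector replicate 1 was left out. NFKB2, an NF-kB subunit, had 82.4, 99.4 and 119 CPM in FL and 65.0, 58.8 and 92.0 CPM in vector libraries. TNFAIP3, a feedback inhibitor, lay close in both groups, with 8.99, 13.1 and 39.9 CPM in FL and 10.5, 17.4 and 40.1 CPM in vector libraries. IL6 was listed at 0 in all 6 libraries.

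Among matrix metalloproteases and the urokinase system the edgeR fit of the BON-1 libraries called MMP10 alone, without vector replicate 1. DESeq2 called 3 members higher with all 9 libraries and 6 without that library, against 0.812% and 2.64% of all genes in either direction. Of 25 tested, 6 were higher and 0 lower at an unadjusted p under 0.05 with all 9 libraries, against 3.52% higher over all genes, and 8 higher and 0 lower without vector replicate 1, against 5.86%. The list's median was 0.08 with all 9 libraries and 0.22 without vector replicate 1. MMP1, MMP3 and MMP13, proteases of the same gene cluster, and PLAU and TIMP2 were named after their values were seen. MMP1, a collagenase, had 183, 146 and 266 CPM in FL and 192, 53.6 and 142 CPM in vector libraries, where vector replicate 1 was within the range of FL. MMP3, a stromelysin, had 3.55, 4.42 and 2.58 CPM in FL and 0.251, 0.167 and 0.272 CPM in vector libraries, with a wide gap between the groups. DESeq2 called MMP3 higher with and without vector replicate 1. The edgeR fit of all 27 libraries called MMP3 alone of this list, and MMP10 alone once vector replicate 1 was left out. MMP13, also a collagenase, had 26.2, 27.7 and 28.9 CPM in FL and 21.2, 11.7 and 18.4 CPM in vector libraries, again without overlap. PLAU, the urokinase gene, had 13.9, 22.3 and 85.0 CPM in FL and 2.79, 12.4 and 52.5 CPM in vector libraries, each FL library above that of its number. TIMP2, an inhibitor of these proteases, had 55.7, 49.6 and 148 CPM in FL and 62.8, 48.4 and 145 CPM in vector libraries, which overlapped.

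**Figure D2:**
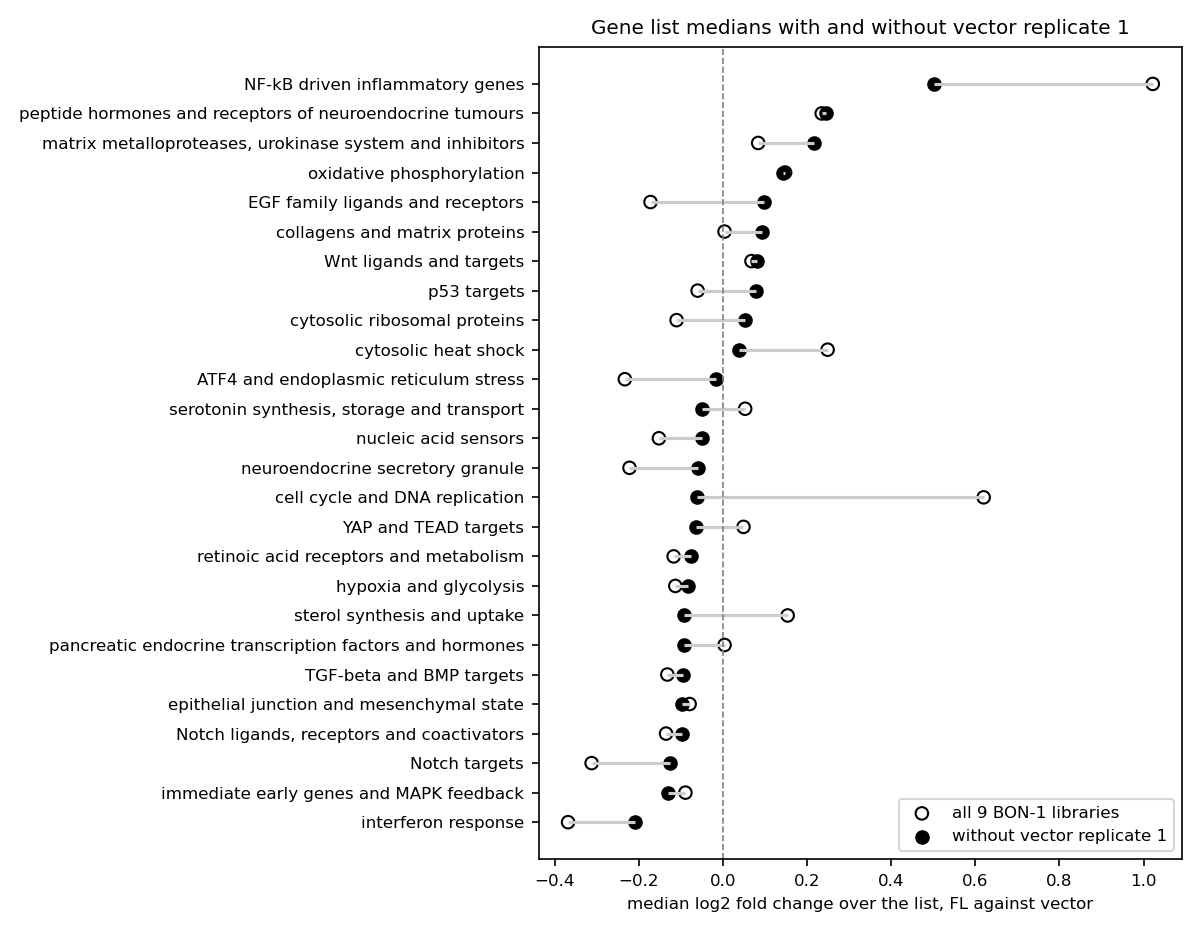
Median log2 fold change, FL against vector, over the tested members of each gene list with at least 8 of them. Open circles are from all 9 BON-1 libraries and filled circles from the fit without vector replicate 1. The cell cycle list moves from 0.62 to -0.06 when that library is left out, while the NF-kB list stays highest at 1.02 and 0.50 and the interferon list lowest at -0.37 and -0.21.

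Interferon response genes had mostly negative fold changes. EdgeR called none of them in either fit, and DESeq2 called OASL lower with all 9 libraries and OASL, DDX60 and RSAD2 lower without vector replicate 1. The DESeq2 share over all genes, in either direction, was 0.812% and 2.64% in those fits. Of 34 tested, 13 were lower and 0 higher at an unadjusted p under 0.05 with all 9 libraries, against 4.54% lower over all genes, and 12 lower and 0 higher without vector replicate 1, against 5.71%. Positive fold changes numbered 2 of 34 with all 9 libraries and 4 of 34 without vector replicate 1. The median was -0.37 with all 9 libraries and -0.21 without vector replicate 1. The summed level was 2477, 1806 and 3183 CPM in FL, 2328, 1324 and 2193 CPM in dEx1 and 4029, 1919 and 3593 CPM in vector libraries. Each FL library was below the vector library of its number, but the groups overlapped because replicate 2 was low in all 3 groups.

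OASL, which encodes an antiviral protein related to the oligoadenylate synthetases, had 16.1, 9.44 and 32.7 CPM in FL and 24.2, 11.97 and 42.9 CPM in vector libraries (log2 fold change -0.44, SE 0.10, adjusted p = 0.599). DDX60, a helicase that promotes RNA sensing, had 25.0, 12.7 and 47.7 CPM in FL and 31.9, 17.5 and 58.7 CPM in vector libraries. Both genes were lower in FL within each pair and overlapped between groups. IFIH1, a sensor of double-stranded RNA, had 70.0, 48.8 and 76.4 CPM in FL and 103, 59.4 and 89.0 CPM in vector libraries. ISG15, a ubiquitin-like modifier named after its values were seen, had 289, 218 and 397 CPM in FL and 935, 246 and 493 CPM in vector libraries, so that vector replicate 1 alone was far above the rest.

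**Figure D3:**
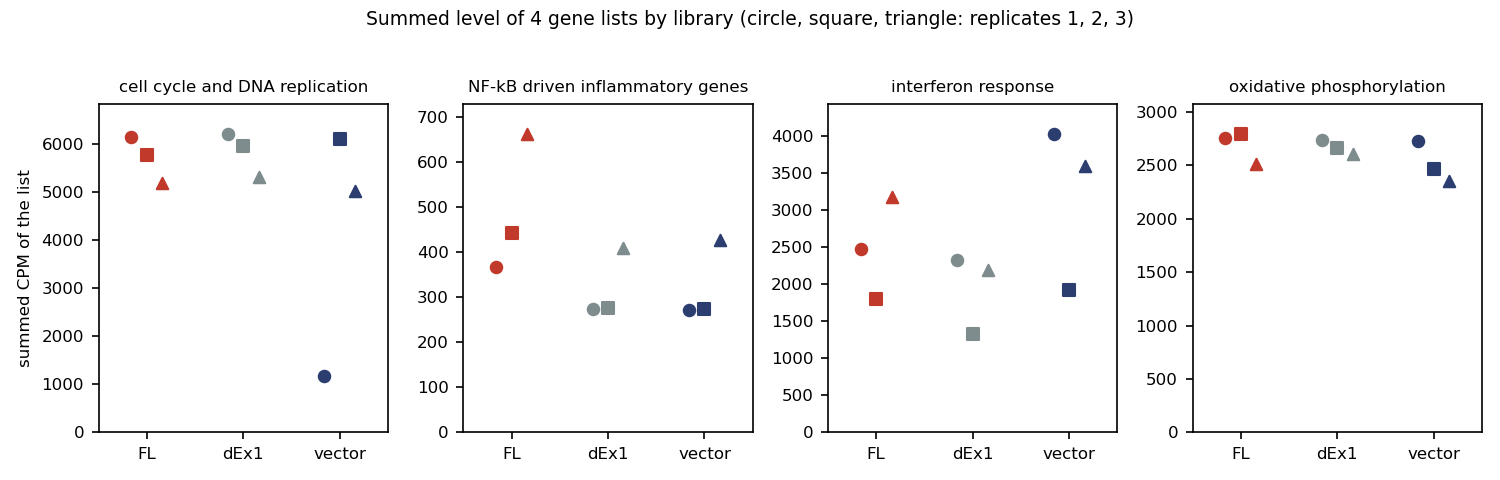
Summed CPM of 4 gene lists in each BON-1 library, with FL, dEx1 and vector from left to right and replicates 1, 2 and 3 as circle, square and triangle. Vector replicate 1 has the lowest cell cycle sum at 1172 CPM and the highest interferon sum at 4029 CPM, and the NF-kB sum of each FL library is above that of the vector library of its number.

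Oxidative phosphorylation genes had small and mostly positive fold changes, 18 of 22 with all 9 libraries and 20 of 22 without vector replicate 1. EdgeR called 0 of them in either fit, and DESeq2 called COX7B without vector replicate 1, where it called 2.64% of all genes. Of the 22, 4 were higher and 0 lower at an unadjusted p under 0.05 with all 9 libraries, against 3.52% higher over all genes, and 7 higher and 0 lower without vector replicate 1, against 5.86%, with medians of 0.15 and 0.14. Every FL library was above every vector library for 9 of the 22, against 4.74% of all genes, and for 13 of 22 without vector replicate 1, against 8.72%. For none of the 22 was every FL library below every vector library, against 3.86% of all genes and 7.16% without vector replicate 1. COX7B, a subunit of cytochrome oxidase, had 76.4, 70.5 and 71.6 CPM in FL and 66.2, 59.3 and 57.6 CPM in vector libraries (adjusted p = 0.599). NDUFS5, a subunit of the first respiratory complex, had 77.0, 85.0 and 68.9 CPM in FL and 59.2, 68.7 and 61.0 CPM in vector libraries. Both showed a narrow gap and no overlap.

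Of the 25 listed immediate early genes and feedback inhibitors of MAPK signalling, edgeR called 0 in either fit. NR4A1, called higher without vector replicate 1, was not on that list. DESeq2 called EGR1 and PHLDA1 lower with all 9 libraries, against 0.812% of all genes in either direction. Without vector replicate 1 it called 1 member higher and 4 lower, against 2.64%. With all 9 libraries 1 of 25 was higher and 4 lower at an unadjusted p under 0.05, against 3.52% higher and 4.54% lower over all genes. Without vector replicate 1 these were 1 and 8, against 5.86% and 5.71%, with medians of -0.09 and -0.13. EGR1, an immediate early transcription factor, had 54.7, 78.0 and 69.6 CPM in FL, 45.1, 73.9 and 64.3 CPM in dEx1 and 121, 121 and 118 CPM in vector libraries. The 3 vector libraries lay within 4 CPM of each other and above all others. The log2 fold change of EGR1 was -0.86 (SE 0.15, adjusted p = 0.555), and it was -0.67 without vector replicate 1 (SE 0.08, adjusted p = 0.0889). PHLDA1, which is induced by MAPK signalling, had 315, 286 and 317 CPM in FL and 404, 368 and 372 CPM in vector libraries, without overlap. FOSB, an AP-1 subunit named after its values were seen, lay higher in FL, with 11.5, 15.1 and 13.7 CPM in FL and 2.48, 8.63 and 9.69 CPM in vector libraries.

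Of the neuroendocrine secretory granule genes, edgeR and DESeq2 called 0 with or without vector replicate 1. Of 21 tested, 1 was higher and 1 lower at an unadjusted p under 0.05 in each edgeR fit. Over all genes 3.52% were higher and 4.54% lower with all 9 libraries, and 5.86% and 5.71% without vector replicate 1. The median was -0.22 with all 9 libraries and -0.06 without vector replicate 1, in which CHGA was at 31740 CPM. VGF, a granin-like protein, had 1494, 1570 and 844 CPM in FL and 3091, 1745 and 1071 CPM in vector libraries, lower in FL within each pair. SYP, the vesicle protein synaptophysin, had 90.8, 112 and 64.1 CPM in FL and 63.6, 90.8 and 56.7 CPM in vector libraries, higher in FL within each pair. TPH1, the serotonin-synthesis enzyme named after its values were seen, had 19.95, 28.1 and 25.4 CPM in FL and 15.9, 30.2 and 26.8 CPM in vector libraries, which overlapped and had no common direction.

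The cell cycle list turned over with vector replicate 1. All 34 members had positive fold changes with all 9 libraries (median 0.62), and 10 of 34 did without that library (median -0.06), with 0 called by edgeR or DESeq2 in either fit. PCNA, the replication clamp, had 240, 228 and 201 CPM in FL and 62.3, 206 and 185 CPM in vector libraries. MKI67, a proliferation marker, had 419, 557 and 570 CPM in FL and 112, 423 and 346 CPM in vector libraries. Outside vector replicate 1 these levels were close between the groups for PCNA, while 2 of the 3 FL libraries of MKI67 exceeded both remaining vector libraries.

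The FL effect in BON-1 was set against that in QGP-1, another pancreatic neuroendocrine line, and SK-N-SH, a neuroblastoma line, in 1 fit of all 27 libraries. The difference between effects was called for 12 of 16883 genes against QGP-1 (0.0711%) and for 318 against SK-N-SH (1.88%). For NR4A1 the log2 fold change was 1.85 in BON-1 (SE 0.25, adjusted p = 0.00634), 1.96 in QGP-1 (SE 0.25, adjusted p = 0.00239) and 1.13 in SK-N-SH (SE 0.24, adjusted p = 0.0136). NR4A1 was the 1 gene besides MAML3 among those plotted across lines that passed in each line in that fit. Its difference was -0.11 against QGP-1 (SE 0.34, adjusted p = 1) and 0.72 against SK-N-SH (SE 0.34, adjusted p = 0.341). CXCL2 also passed in each line but was not plotted, as its QGP-1 means were 1.23 CPM in FL and 0 in vector libraries. The log2 fold change of CXCL2 was 2.82 in BON-1 (adjusted p = 0.00634), 9.84 in QGP-1 (adjusted p = 0.000184) and 4.64 in SK-N-SH (adjusted p = 1.25e-05). With 0 in the QGP-1 vector libraries, the size there is uncertain.

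MMP10 had a smaller fold change in BON-1 than in QGP-1, by 2.67 on the log2 scale (1.37 against 4.04; difference -2.67, SE 0.45, adjusted p = 0.041, and -2.20 without BON-1 vector replicate 1, adjusted p = 0.048). Against SK-N-SH, where the fold change of MMP10 was 3.37, the difference was -1.997 (SE 0.45, adjusted p = 0.0335), and it missed the threshold without BON-1 vector replicate 1 (-1.53, adjusted p = 0.0664). CXCL8 had a fold change of 1.69 in BON-1 and 3.85 in SK-N-SH, a difference of -2.17 (SE 0.49, adjusted p = 0.0357), while its difference against QGP-1 was -1.70 (SE 0.63, adjusted p = 0.443). RGS4 had fold changes of opposite sign, of which that in SK-N-SH passed: it was 0.78 in BON-1 and -1.06 in SK-N-SH (SE 0.17, adjusted p = 0.00163), and the difference was 1.85 (SE 0.23, adjusted p = 0.00124). For CBX1 the difference against SK-N-SH was 1.97 (SE 0.41, adjusted p = 0.026), and 1.69 without BON-1 vector replicate 1 (adjusted p = 0.0661). CLCA1, S100A9 and CELA3A were listed at 0 in all 6 QGP-1 libraries of FL and vector, and their means in SK-N-SH FL and vector did not exceed 0.0795 CPM, so no effect could be compared there.

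**Figure D4:**
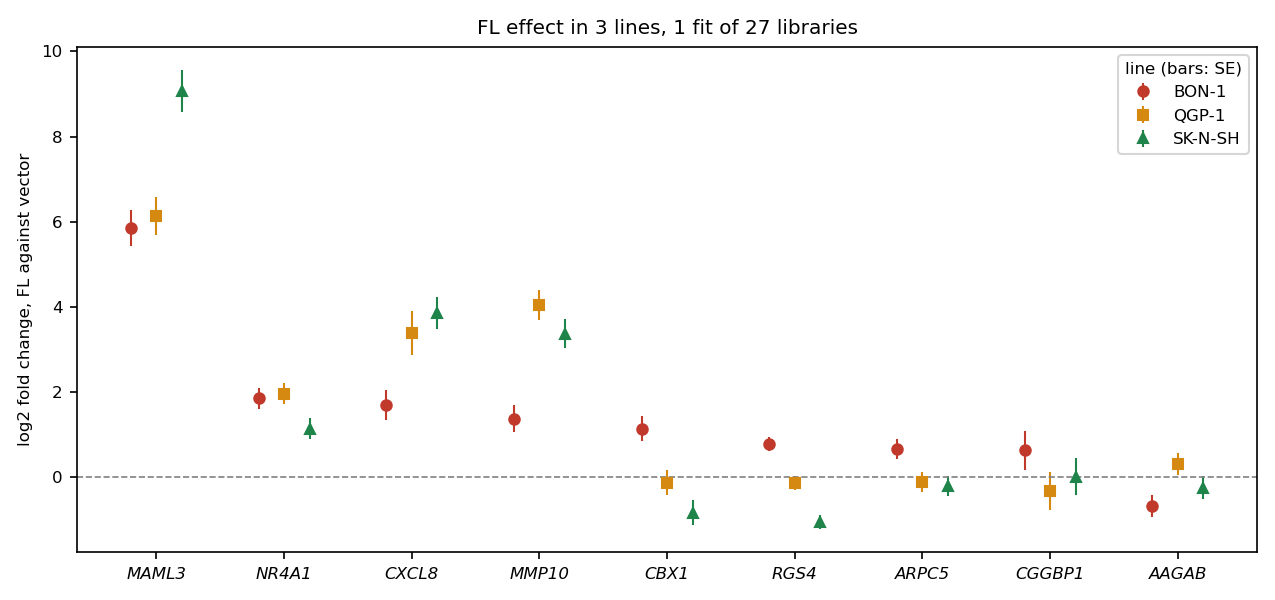
Log2 fold change of FL against vector in BON-1, QGP-1 and SK-N-SH from 1 fit of 27 libraries, with bars of 1 SE. The 9 genes shown are those called, or among the smallest p, in BON-1 with a mean of at least 2 CPM in a group of each line, and MAML3. NR4A1 lies above 0 in all 3 lines, MMP10 and CXCL8 lie lower in BON-1 than in the other lines, and RGS4 is at 0.78 in BON-1 and -1.06 in SK-N-SH.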

How the data were processed

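Poly(A) RNA libraries (TruSeq) of transfected BON-1 cells were trimmed with Trimmomatic, aligned to hg19 with HISAT2 and quantified with StringTie, per the submitters' processing notes and the series' design text, with no versions given. The authors deposited 1 table of whole-number estimated counts (expected counts) per gene. How the counts were derived, the annotation and the use of strand are not given in the sources used here. The worth of 1 fragment is unknown: 7317 values are exactly 5, so a counting interval is not given. The table holds 23234 rows and 23230 gene symbols.

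Counts were filtered with filterByExpr and scaled by TMM. They were tested with edgeR 4.0.16 (R 4.3.3, limma 3.58.1) in a quasi-likelihood fit of the 9 BON-1 libraries, with replicate number as a block. The call is a Benjamini-Hochberg adjusted p under 0.05 over all genes tested. The fit was repeated without vector replicate 1. CPM are counts over TMM-scaled library sizes. A fit of all 27 libraries tested differences between lines. DESeq2 1.42.0 and the other alternatives are in the closing section. The edgeR procedure was also run on simulated data, with an outcome not reported here. No simulated library was set apart from the rest, so that run does not bear on vector replicate 1.

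The labels number the replicates alike in each group. Residuals of same-numbered libraries correlated at 0.113 to 0.497 in all pairs (FL with vector 0.121, 0.264 and 0.426), so the numbers were taken to pair the libraries. Differently numbered libraries of other groups reached 0.151 (FL replicate 1 with vector replicate 2), above both same-number values of vector replicate 1. The labels call the replicates biological and do not say how the cultures were separated, so p-values measure the spread between these libraries.

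The named genes were the 12 largest and 12 smallest fold changes among called genes with the same direction in every pair and at least 2 CPM in the higher group, leaving out MAML3, uncharacterised loci and antisense RNAs. Where fewer than 10 were called, the 10 of smallest p were added as values, as were up to 4 called or 2 uncalled members of each list. The comparison and the 32 gene lists were chosen with earlier results of these data known, and 553 of 614 listed genes were in the table. Of the histone list 0 genes were in it. Values of some listed genes are not reported here.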

Additional observations from a re-analysis of the deposited data

Results flagged for a closer look

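Each value below is the log2 fold change of FL against vector in BON-1 minus that in another line, from the fit of all 27 libraries, and each was picked out because that difference itself passed edgeR's test at an adjusted p under 0.05.

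Against QGP-1, MMP10 differed by -2.67 (SE 0.45, adjusted p = 0.041). Mean MMP10 in QGP-1 was 162 ± 39.8 CPM in FL and 9.63 ± 1.42 CPM in vector libraries (SD, n = 3 each).

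Against SK-N-SH, MAML3 itself differed by -3.22 (SE 0.51, adjusted p = 0.00602), so the rise of MAML3 over vector was smaller in BON-1. Both group means differed between the lines. They were 3879 CPM in FL and 65.1 CPM in vector libraries of BON-1, and 12018 and 22.0 CPM in those of SK-N-SH. The levels of the 2 lines were scaled over different sets of libraries. Smaller or more negative effects in BON-1 were also found for CXCL8 (-2.17), MMP10 (-1.997), the hypoxia-induced carbonic anhydrase CA9 (-2.66), NDRG1 (-1.50) and NRARP (-0.87). For EREG, an EGF family ligand, the difference was -10.88, where the SK-N-SH vector mean was 0.0103 CPM, so the fitted size depends on the prior count. Larger effects in BON-1 were found for ANKRD1 (3.41), RGS4 (1.85), CBX1 (1.97), NTS (1.61) and CCNG1 (1.11). ANKRD1 had 17.9, 17.7 and 36.2 CPM in BON-1 FL and 0.906, 1.63 and 8.75 CPM in BON-1 vector libraries. In the edgeR fit of the BON-1 libraries its log2 fold change was 3.16 (SE 0.42, adjusted p = 0.217). Without vector replicate 1 it was 2.71 (SE 0.34, adjusted p = 0.0965). DESeq2 and the fit of all 27 libraries called ANKRD1 higher in BON-1, with and without that library. NTS was near 0 in SK-N-SH, at 0.462 CPM in FL and 0.990 CPM in vector libraries on average. The differences in MMP10, CBX1, CCNG1 and NTS against SK-N-SH missed the threshold without BON-1 vector replicate 1 (adjusted p = 0.0664, 0.0661, 0.0837 and 0.0941). The rise of MAML3 differed between the 2 lines, and its part in the other differences was not tested.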

How the results depend on the processing

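With all 9 BON-1 libraries 1 gene was called, and the count was 121 with DESeq2 (70 higher, 51 lower), 28 with all 27 libraries in 1 fit, 2 with counts divided by 5, and 0 with MAML3 left out or with only FL and vector libraries, where MAML3 had a log2 fold change of 5.85 and an adjusted p of 0.114. Leaving out 1 library gave 1 to 14 calls, 14 without vector replicate 1. Without vector replicate 1, 14 genes were called, and the count was 402 with DESeq2 (208 higher, 194 lower), 29 with all 27 libraries, 3 without the replicate block (CLCA1, MAML3 and NR4A1) and 0 with only FL and vector libraries. Leaving out 1 more library gave 1 to 9 calls: 9 without FL replicate 1, 2 without FL replicate 2, 1 without FL replicate 3 and 4 without vector replicate 2 or 3. Of the 14, each that was tested kept its sign in every alternative run. DESeq2 with and without vector replicate 1 shared 100 genes (82.6% and 24.9% of its calls). A robust spread, added after seeing the data, called 20. The difference against QGP-1 had 12 calls, 20 without vector replicate 1 and 2 without the block; that against SK-N-SH had 318, 295 and 48. Without the block and with all 9 libraries the count stayed at 1. For these counts the cause was not tested.

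Of 2491 gene values under alternatives (148 gene results), 2317 kept direction and side of the threshold, 76 passed it, 91 lost it and 7 reversed. With all 9 libraries, CD68 ranged from -0.32 to 0.081 (without vector replicate 1), with 0.01 without FL replicate 1. Without vector replicate 1, CD68 was -0.10 without the block. On leaving out 1 more library, CD68 ranged from -0.017 to 0.12, CDH5 from -0.11 to 2.68, COL3A1 from -0.47 to 2.15 and RPL32 from -0.30 to 0.12. The worth of 1 fragment is unknown, so no floor for a count of 0 is given.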

Other observations

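Other gene lists held 0 called genes in either edgeR fit, and their counts at an unadjusted p under 0.05 follow for the fit without vector replicate 1, where 5.86% of all genes were higher and 5.71% lower. Sterol synthesis had 0 higher and 5 lower of 21 (median -0.09, and 0.15 with all 9 libraries). Hypoxia and glycolysis had 1 higher and 5 lower of 23 (median -0.08). Ribosomal protein genes had 4 higher and 0 lower of 28 (median 0.05, and -0.11 with all 9 libraries). Epithelial junction and mesenchymal genes had 3 higher and 6 lower of 19 (median -0.10). EGF family genes had 4 higher and 2 lower of 10 (median 0.10). The p53 targets had 1 higher and 1 lower of 18, and cytosolic heat shock genes 2 higher and 0 lower of 13. In the same comparison DESeq2 called 2.64% of all genes in either direction. Its calls in the lists just given were 4 hypoxia and 2 sterol genes lower, 2 EGF family genes higher, and 2 epithelial and mesenchymal genes higher and 2 lower. In lists without counts here it called ANKRD1 (YAP and TEAD targets), GHRL (pancreatic endocrine factors and hormones) and TH (serotonin synthesis) higher. It called 0 ribosomal, p53 or heat shock genes.

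Some genes, chosen after their values were seen, varied widely within a group. CLDN4, a tight junction claudin, had 6.48, 370 and 716 CPM in FL and 12.1, 5.96 and 6.83 CPM in vector libraries (log2 fold change 5.04, adjusted p = 0.599), so that FL replicate 1 lay among the vector libraries. CSHL1, of the growth hormone family with near-identical paralogs, had 6.57, 8.66 and 13.4 CPM in FL and 6.37, 55.1 and 182 CPM in vector libraries (log2 fold change -2.52, adjusted p = 0.599).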
